A study of Xenopus laevis with 27 samples.

Results

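Presomitic mesoderm is the unsegmented tissue at the tail end of a vertebrate embryo, from which somites, the blocks that form muscle, skeleton and dermis, bud off one after another. Cells enter it from the growth zone of the tail and leave it at the front, where cyclic Notch signalling and segment genes set each boundary. In the frog, msgn1 encodes mesogenin 1, a basic helix-loop-helix transcription factor of unsegmented paraxial mesoderm. Pcdh8.2 encodes a protocadherin, a cell adhesion molecule of the protocadherin 8 group to which the paraxial protocadherin of frog mesoderm belongs. Aldh1a2 encodes a retinaldehyde dehydrogenase that makes retinoic acid, a signal that acts against the posterior growth zone and is made in several tissues besides paraxial mesoderm.

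All probe sets whose platform symbol, without the suffix .L or .S, was msgn1, pcdh8.2 or aldh1a2 were taken, which gave 10 of 32635 probe sets. They carried 4 of the 11303 symbols on the array: msgn1.L and msgn1.S with 1 probe set each, pcdh8.2.L with 1, and aldh1a2.L with 7. The suffixes mark the long and short copies (homeologs) of a gene in Xenopus laevis, the African clawed frog. Other homeologs of these genes were not analysed here. The rule that took the probe sets used gene names alone, but the genes were chosen with earlier results of these data known.

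The study raised or lowered Notch signalling and measured RNA of whole embryos on Affymetrix microarrays for this frog. Embryos were injected with 1.5 ng of capped RNA into a single blastomere at the two-cell stage, so that the opposite side of each embryo was not injected. The NICD groups received RNA for the intracellular domain of Notch, which activates the pathway (named ICD in the labels), together with GFP according to the series description. The DBM groups received RNA for a mutant of Suppressor of Hairless that cannot bind DNA and that suppresses Notch signalling, also together with GFP by that description, while the injection protocol names a single construct for each embryo. The GFP groups received RNA for green fluorescent protein, the injection tracer and control. Each construct was sampled at stage 18 (neurula), stage 28 (tailbud) and stage 38 (tadpole), with 3 arrays for each of the 9 groups and total RNA from a pool of 10 embryos on each array. The values are log2 intensities after RMA (robust multi-array averaging) by the authors, and array medians lay between 6.83 and 6.99. A difference of 1 on this scale is a doubling, and a probe set was called when its limma p-value, adjusted by Benjamini-Hochberg over all probe sets, was under 0.05. Because arrays with the same replicate number within a stage deviated together, each call was also made with the replicate number as a block within the stage, and that value is given where it changed the call. The NICD and DBM comparisons share the GFP arrays of their stage. RNA of whole embryos cannot tell fewer presomitic cells from less RNA in each cell. Intervals are 95% limma intervals of the log2 difference from the fit without a block. Their width rests on 3 arrays per group and on a spread per probe set that is shared over all 27 arrays. For a given probe set, SE and width are therefore the same for every pair of groups, whatever the spread of the arrays compared.

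In GFP embryos, msgn1 and pcdh8.2 fell at each step between stages, while 4 of the 7 aldh1a2.L probe sets fell in the first step and none in the second. Msgn1.L read 10.93, 10.56 and 10.68 at stage 18, 8.51, 8.17 and 8.47 at stage 28, and 4.75, 4.88 and 4.59 at stage 38 in the 3 GFP arrays. The 3 stages did not overlap. The value was 5.07-fold lower at stage 28 than at stage 18 (log2 difference -2.34 ± 0.16 SE, limma adjusted p = 3.97e-11) and lower by a log2 difference of -3.64 ± 0.16 at stage 38 than at stage 28 (adjusted p = 6.5e-14). The stage 38 level of msgn1.L in GFP embryos, 4.74 on average, lay at the 19.8th percentile of the array and that of msgn1.S, 5.65, at the 32.9th. The values carry no detection call, so whether these levels were above background was not tested, and no fold against them is given. Msgn1.S read 10.37, 10.14 and 10.06 at stage 18, 7.31, 7.37 and 7.54 at stage 28, and 5.79, 5.64 and 5.51 at stage 38 in GFP arrays. It was 6.88-fold lower at stage 28 than at stage 18, and lower again at stage 38 by a log2 difference of -1.76 (adjusted p = 2.16e-10). Probe sequences were not used here, so cross-hybridisation between the copies was not tested.

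Pcdh8.2.L read 11.33, 11.15 and 11.09 at stage 18, 9.94, 9.84 and 9.87 at stage 28, and 7.54, 7.72 and 7.52 at stage 38 in GFP embryos. The stages again did not overlap, with a 2.48-fold fall in the first step (limma adjusted p = 9.52e-11) and a 4.88-fold fall in the second (adjusted p = 2.36e-14). Of the 10 probe sets, 8 were called between stage 28 and stage 18 in GFP embryos, 7 lower and 1 higher at stage 28, in a comparison that called 51.4% of all probe sets, 29.4% lower and 22% higher. Between stage 38 and stage 28, 4 were called, 3 lower and 1 higher at stage 38, where 41.2% of all probe sets were called, 22.4% lower and 18.8% higher. The arrays of the stages did not overlap in 9 of the 10 in the first step and 4 in the second, against 57.1% and 51.2% of all probe sets. The median difference over the 10 probe sets was -1.67 in the first step, against -0.09 over all probe sets, and -0.08 in the second, against -0.02 over all probe sets. Of the 10, 7 are of aldh1a2.L alone, so these medians and counts mostly describe that gene.

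**Figure D1:**
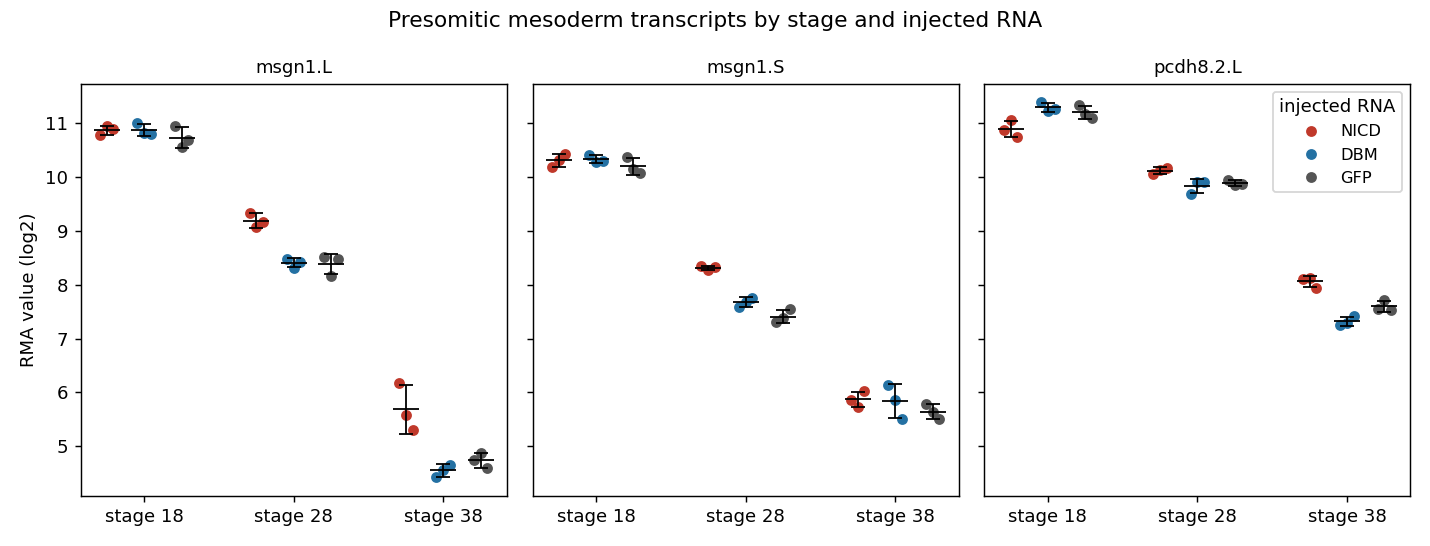
RMA values (log2, y axis) of msgn1.L, msgn1.S and pcdh8.2.L on each array, by stage and injected RNA (x axis). Points are arrays, and bars are the mean and SD of 3 arrays. At stage 28 the 3 NICD arrays lie above the DBM and GFP arrays in all 3 panels, and at stage 38 they do so for msgn1.L and pcdh8.2.L, while msgn1.S overlaps.

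The 7 aldh1a2.L probe sets did not behave as 1 transcript. Xl2.8908.1.S2_at averaged 11.61 ± 0.05 at stage 18, 9.68 ± 0.07 at stage 28 and 9.76 ± 0.22 at stage 38 in GFP embryos (SD, n = 3 each). Xl2.8908.1.S1_at averaged 10.48 ± 0.10, 8.09 ± 0.05 and 8.05 ± 0.11, and Xl2.8908.3.A1_at 9.33 ± 0.05, 7.43 ± 0.09 and 7.38 ± 0.05 in the same order of stages. In the first step these 3 probe sets were 3.82-fold, 5.26-fold and 3.72-fold lower at stage 28, and none was called in the second. Xl2.8908.2.S1_a_at fell by 1.44 on the log2 scale in the first step (limma adjusted p = 2.31e-10) and rose by 0.39 in the second (adjusted p = 0.0055), a call lost without replicate 1 of the stage 28 GFP group (adjusted p = 0.0517).

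The remaining 3 aldh1a2.L probe sets showed no fall. Xl2.2158.1.A1_at rose in the first step of GFP embryos, with 8.85, 9.18 and 9.24 at stage 28 against 8.19, 8.52 and 8.37 at stage 18 (log2 difference 0.73 ± 0.26 SE, limma adjusted p = 0.0237). That call was lost without replicate 1 or 3 of the stage 18 group (adjusted p = 0.0781 and 0.0505) and without replicate 2 or 3 of the stage 28 group (0.0668 and 0.0778). Xl2.2158.2.S1_at lay between 5.48 and 6.16 in GFP embryos over all stages and was not called in either step, except in the first step when the 6 arrays were fitted alone (adjusted p = 0.0353, or 0.0462 with the block). Xl2.8908.2.A1_at read between 3.71 and 4.33 on all 27 arrays, at a group mean within the lowest 11.8% of values, and was never called. The 4 probe sets that fell correlated at 0.93 or more with each other over the 27 arrays, while Xl2.2158.1.A1_at correlated with them at -0.75 to -0.69; all points share arrays and the 3 stages, and the coefficients are descriptive.

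**Figure D2:**
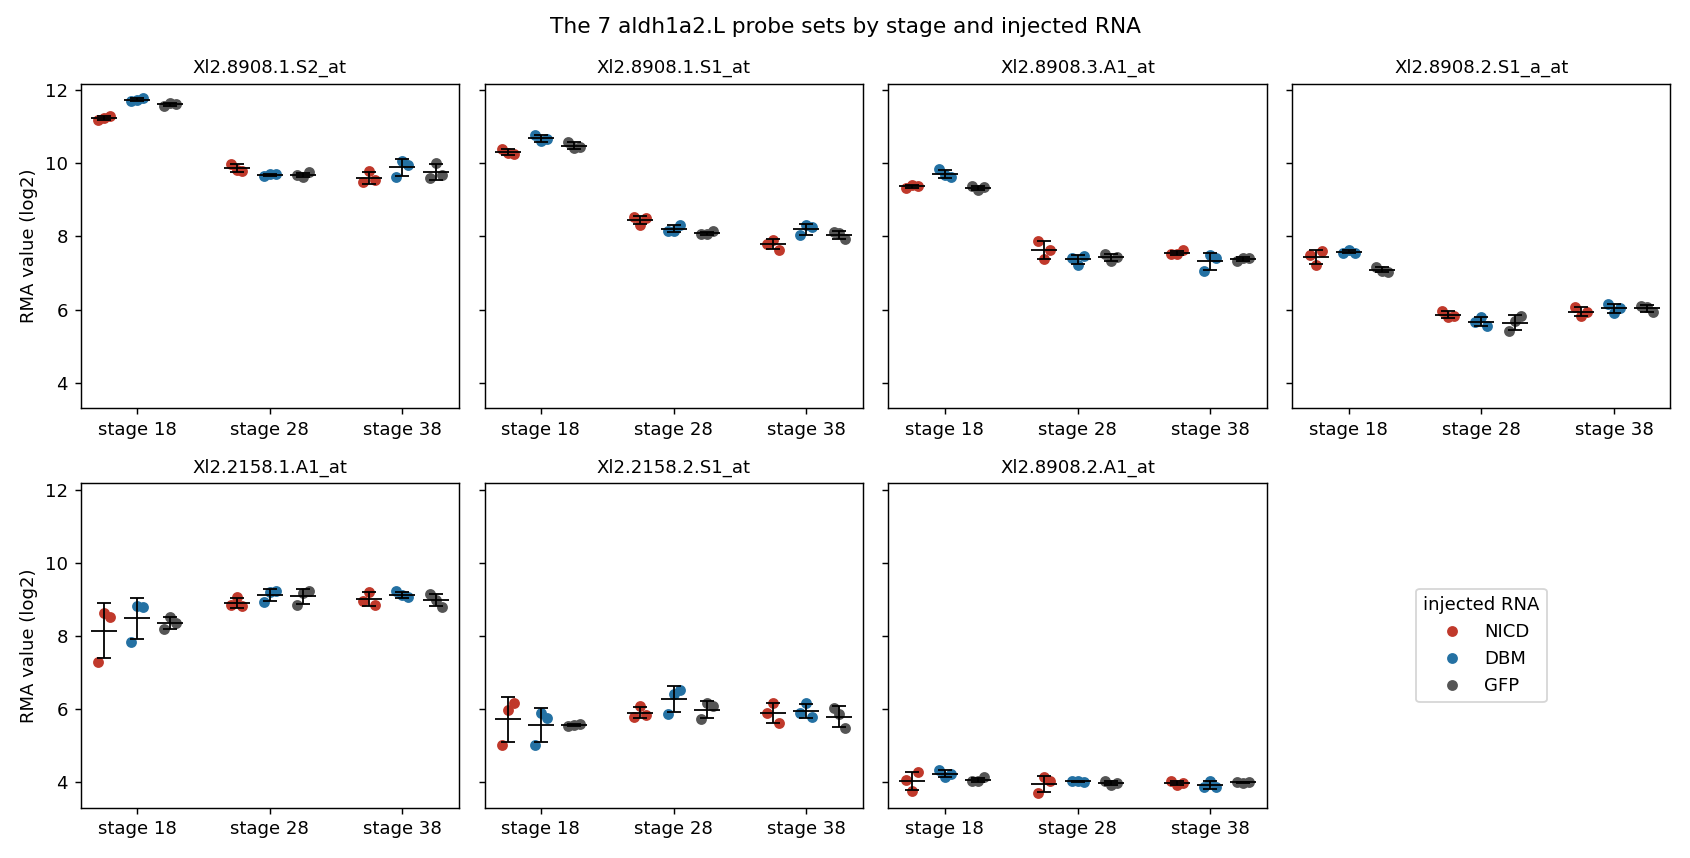
RMA values (log2, y axis) of the 7 aldh1a2.L probe sets on each array, by stage and injected RNA (x axis), with the mean and SD of 3 arrays. The 4 panels of the upper row fall between stage 18 and stage 28, while the 3 lower panels do not, and replicate 1 of the NICD and DBM groups lies low at stage 18 in both Xl2.2158 panels.

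Both msgn1 copies rose in NICD against GFP embryos at stage 28 and msgn1.L at stage 38, and no difference in msgn1 was detectable at stage 18. At stage 28, msgn1.S read 8.34, 8.26 and 8.32 in NICD embryos, against 7.31, 7.37 and 7.54 in GFP embryos. The lowest NICD array lay above the highest GFP array. The difference was 0.90 ± 0.12 (SE), or 1.87-fold, with a limma adjusted p of 0.0018, the sixth lowest p of all probe sets. It was called without any 1 array, and within replicate numbers 1, 2 and 3 the NICD array exceeded the GFP array by 1.03, 0.89 and 0.78. Fitted on the 6 arrays of the comparison alone, it missed the threshold (adjusted p = 0.0600).

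Msgn1.L at stage 28 read 9.33, 9.06 and 9.16 in NICD embryos, against 8.51, 8.17 and 8.47 in GFP embryos. The groups did not overlap, and the difference was 0.80 ± 0.16, or 1.75-fold (limma adjusted p = 0.0196). Within replicate numbers 1, 2 and 3 it was 0.82, 0.90 and 0.69. The call was lost without GFP replicate 2 (adjusted p = 0.121) and without NICD replicate 1 (0.0701), 2 (0.0578) or 3 (0.0813), and with the 6 arrays alone (0.0758). These 2 were the only members of the 10 called for NICD against GFP at stage 28, where 0.65% of all probe sets were called. The arrays did not overlap in 5 of the 10, against 15.9% of all probe sets. The median difference over the 10 probe sets, 7 of them of aldh1a2.L alone, was 0.20, against 0.01 over all probe sets.

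At stage 38, msgn1.L read 6.18, 5.58 and 5.30 in NICD embryos, against 4.75, 4.88 and 4.59 in GFP embryos. All NICD arrays lay above all GFP arrays, with a wide spread among the NICD arrays (SD 0.45, against 0.14 in GFP embryos). The difference was 0.94 ± 0.16 on the log2 scale (limma adjusted p = 0.0142), over the low GFP level named above. It was the only member called at this stage, where 0.095% of all probe sets were called. Removing NICD replicate 1 ended the call (difference 0.70, adjusted p = 0.118), as did removing GFP replicate 1 (0.0589) or 3 (0.0922) and fitting the 6 arrays alone (0.782, or 0.0602 with the replicate block). Of the 10 members 4 did not overlap, against 8.63% of all probe sets. Msgn1.S at stage 38 read 5.85, 5.73 and 6.02 in NICD embryos, against 5.79, 5.64 and 5.51 in GFP embryos. These overlapped, and the difference of 0.22 was not called (interval -0.04 to 0.48).

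At stage 18, msgn1.L read 10.77, 10.94 and 10.88 in NICD embryos, against 10.93, 10.56 and 10.68 in GFP embryos. Msgn1.S read 10.19, 10.31 and 10.42 in NICD embryos, against 10.37, 10.14 and 10.06 in GFP embryos. The groups overlapped for both copies, and the intervals of the differences ran from -0.19 to 0.46 for msgn1.L and from -0.14 to 0.38 for msgn1.S. Read as a change of the NICD effect between stages, the stage 28 effect on msgn1.S exceeded that at stage 18 by 0.78 ± 0.18 (limma adjusted p = 0.103, or 0.0167 with the replicate block within stage). For msgn1.L the same difference was 0.67 ± 0.22 and was called in neither fit (adjusted p = 0.380 and 0.0783).

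Pcdh8.2.L stood below GFP at stage 18 and above it at the later stages, with calls that turned on the replicate block. At stage 18 it read 10.87, 11.04 and 10.74 in NICD embryos, against 11.33, 11.15 and 11.09 in GFP embryos. The groups did not overlap, and the difference of -0.31 ± 0.09 had a limma adjusted p of 0.103, or 0.0247 with the replicate block. It was -0.46, -0.11 and -0.35 within replicate numbers 1, 2 and 3. At stage 28 it read 10.05, 10.12 and 10.17 in NICD embryos, against 9.94, 9.84 and 9.87 in GFP embryos, a difference of 0.23 that was called in neither fit (adjusted p = 0.416 and 0.144). At stage 38 it read 8.11, 8.12 and 7.94 in NICD embryos, against 7.54, 7.72 and 7.52 in GFP embryos. The groups did not overlap, and the difference of 0.46 ± 0.09, or 1.38-fold, had an adjusted p of 0.0533, or 0.0092 with the replicate block, and of 0.0261 without NICD replicate 3. The NICD effect at stage 28 exceeded that at stage 18 by 0.54 ± 0.13 (adjusted p = 0.165, or 0.0248 with the block).

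No member was called for NICD against GFP at stage 18 by limma, where 1.61% of all probe sets were called, while 3 of the 10 had an unadjusted p under 0.05, against 13.5% of all probe sets. The arrays did not overlap in 4 of the 10, against 15.1% of all probe sets. With the replicate block, 3 members were called among the 13.2% of all probe sets called in that fit. They were pcdh8.2.L and 2 aldh1a2.L probe sets of opposite sign. Xl2.8908.1.S2_at read 11.20, 11.23 and 11.30 in NICD embryos, against 11.56, 11.66 and 11.62 in GFP embryos, a difference of -0.37 ± 0.11 (limma adjusted p = 0.0923, or 0.0023 with the block). Xl2.8908.2.S1_a_at read 7.48, 7.23 and 7.60 in NICD embryos, against 7.16, 7.07 and 7.04 in GFP embryos, a difference of 0.35 ± 0.11 (adjusted p = 0.118, or 0.0352 with the block). Neither pair of groups overlapped, so these probe sets of the same gene symbol disagreed in direction at this stage. Which of them reports the aldh1a2 transcript was not tested.

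Against GFP at stage 28, 4 of the 7 aldh1a2.L probe sets stood higher in NICD embryos and 3 lower. Xl2.8908.1.S1_at read 8.53, 8.31 and 8.50 in NICD embryos, against 8.06, 8.06 and 8.14 in GFP embryos, a difference of 0.36 ± 0.09 without overlap (limma adjusted p = 0.0898, or 0.0075 with the block, which called 3 members and 6.19% of all probe sets). Xl2.8908.1.S2_at differed by 0.19, Xl2.8908.2.S1_a_at by 0.22 and Xl2.8908.3.A1_at by 0.19, and Xl2.2158.1.A1_at differed by -0.18, Xl2.2158.2.S1_at by -0.08 and Xl2.8908.2.A1_at by -0.02. None of these was called in either fit. From stage 18 to stage 28 the sign of the difference turned for 3 of the 7, Xl2.8908.1.S1_at, Xl2.8908.1.S2_at and Xl2.2158.2.S1_at. The NICD effect at stage 28 exceeded that at stage 18 by 0.54 ± 0.13 for Xl2.8908.1.S1_at (adjusted p = 0.179, or 0.0147 with the block) and by 0.56 ± 0.15 for Xl2.8908.1.S2_at (0.248, or 0.0073 with the block). At stage 38, Xl2.8908.1.S1_at read 7.80, 7.91 and 7.64 in NICD embryos, against 8.11, 8.10 and 7.92 in GFP embryos, and the difference of -0.26 was called in neither fit (adjusted p = 0.859 and 0.130). Its NICD effect at stage 38 was lower than at stage 28 by 0.62 ± 0.13 on the log2 scale (adjusted p = 0.320, or 0.0160 with the block). Xl2.8908.3.A1_at went the other way at stage 38, with 7.53, 7.52 and 7.62 in NICD embryos, against 7.33, 7.40 and 7.42 in GFP embryos. These groups did not overlap, and the difference of 0.17 was called in neither fit (limma adjusted p = 0.538 with the block). The block called 2 members at stage 38, msgn1.L and pcdh8.2.L, among 1.21% of all probe sets. The fit without a block called 0.0981% of all probe sets for the change of the NICD effect between stage 28 and stage 18 and 0.00306% for that between stage 38 and stage 28, and the block 3.18% and 0.346%.

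The probe sets Xl2.2158.1.A1_at and Xl2.2158.2.S1_at varied with the replicate number at stage 18. Xl2.2158.1.A1_at read 7.28, 8.65 and 8.54 in NICD embryos, 7.85, 8.82 and 8.80 in DBM embryos and 8.19, 8.52 and 8.37 in GFP embryos, so that replicate 1 was the lowest of each group. Xl2.2158.2.S1_at read 5.02, 5.98 and 6.17 in NICD embryos, 5.03, 5.89 and 5.78 in DBM embryos and 5.55, 5.57 and 5.60 in GFP embryos. Their intervals for NICD against GFP at stage 18 ran from -0.75 to 0.34 and from -0.37 to 0.68. They were as wide at the other stages, since the fit shares the spread over all arrays. Scanner file names in the authors' second table carry a shared code for the stage 18 arrays numbered 2 and 3 in those names and another for those without a number there. What that code stands for is not stated. The file names were not matched here to the sample labels, which number every array.

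**Figure D3:**
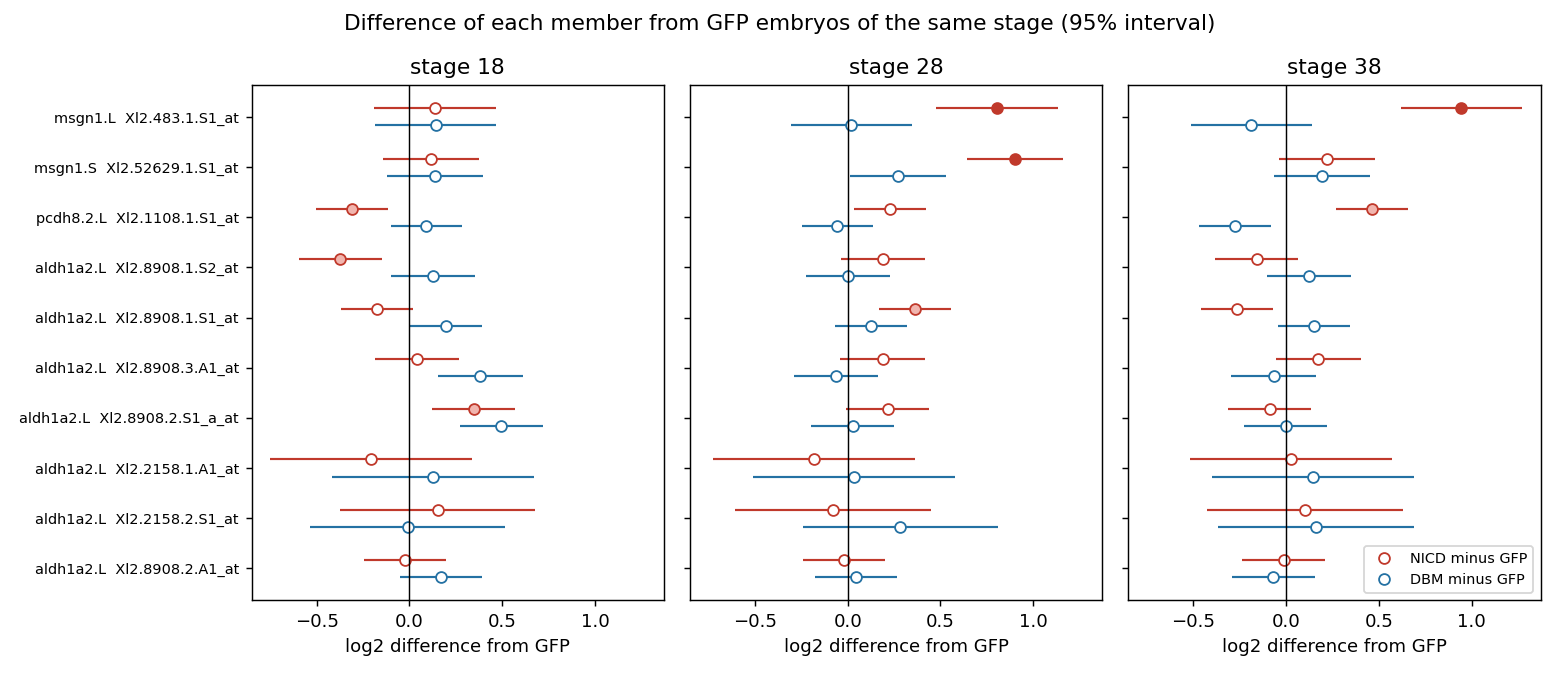
Log2 difference from GFP embryos of the same stage (x axis) for each of the 10 probe sets (rows), NICD in red and DBM in blue, with the 95% limma interval from the fit without a block. Filled points were called in that fit, pale points only with the replicate block within stage, and open points in neither. The filled points are msgn1.L and msgn1.S at stage 28 and msgn1.L at stage 38, all for NICD.

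None of the 10 probe sets was called for DBM against GFP at any stage, with or without the replicate block. The fit without a block called 0% of all probe sets for DBM against GFP at stage 18, 0.107% at stage 28 and 0.0123% at stage 38, and the block 0.236%, 1.94% and 0.11%. At an unadjusted limma p under 0.05, 3 members passed at stage 18, 1 at stage 28 and 1 at stage 38, against 4.73%, 6.78% and 1.95% of all probe sets. At stage 18 these were Xl2.8908.2.S1_a_at, with 7.56, 7.64 and 7.56 in DBM embryos against 7.16, 7.07 and 7.04 in GFP embryos (difference 0.49, adjusted p = 0.610, or 0.0560 with the block), Xl2.8908.3.A1_at (0.38) and Xl2.8908.1.S1_at (0.20). The stage 18 arrays did not overlap in 5 of the 10 probe sets, all of aldh1a2.L and all higher in DBM embryos, where 8.86% of all probe sets did not overlap. At stages 28 and 38 it was 2 and 1 of the 10, against 13.4% and 6.17% of all probe sets. Weighting arrays by quality called Xl2.8908.2.S1_a_at (limma adjusted p = 0.0165), and the share of all probe sets called in that fit is not given here.

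Msgn1.L read 8.47, 8.31 and 8.42 in DBM embryos at stage 28, against 8.51, 8.17 and 8.47 in GFP embryos, overlapping, with an interval of the difference from -0.31 to 0.35. Msgn1.S at that stage read 7.59, 7.69 and 7.76 in DBM embryos, against 7.31, 7.37 and 7.54 in GFP embryos. The arrays did not overlap and DBM embryos stood higher within all 3 replicate numbers, by 0.28, 0.31 and 0.22, but the difference of 0.27 missed the threshold (limma adjusted p = 0.713, or 0.260 with the block). Pcdh8.2.L at stage 38 read between 7.26 and 7.41 in the 3 DBM arrays, against 7.54, 7.72 and 7.52 in GFP embryos, without overlap and with the difference of -0.27 not called (adjusted p = 1, or 0.455 with the block). None of the changes of the DBM effect between stages was called among the members, in fits that called 0.0245% of all probe sets between stages 28 and 18 and 0% between stages 38 and 28, or 2.61% and 0.0214% with the block.

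Set directly against DBM, NICD gave 2, 2 and 3 member calls at stages 18, 28 and 38, against 0, 2 and 1 for NICD against GFP, and GFP arrays did not enter those differences. At stage 28, msgn1.L was higher in NICD than in DBM embryos by 0.78 ± 0.16 (limma adjusted p = 0.0068) and msgn1.S by 0.63 ± 0.12 (adjusted p = 0.0060). They were the 2 of 10 members called, among 1.73% of all probe sets (7.67% with the block, which called the same 2), and both were called without any 1 array. The arrays did not overlap in 4 of the 10 at each stage of this comparison, against 13%, 19.7% and 11.8% of all probe sets at stages 18, 28 and 38. At stage 38, msgn1.L read 6.18, 5.58 and 5.30 in NICD embryos, against 4.43, 4.57 and 4.66 in DBM embryos, a difference of 1.13 ± 0.16 (adjusted p = 6.01e-04) over a DBM mean at the 17.2nd percentile of the array, not tested against background. Pcdh8.2.L read 8.11, 8.12 and 7.94 in NICD embryos, against 7.26 to 7.41 in the 3 arrays of DBM embryos (1.67-fold, adjusted p = 2.64e-04). Both were called without any 1 array, and neither with the 6 arrays alone (adjusted p = 0.239 and 0.141). Xl2.8908.1.S1_at was lower in NICD embryos, at 7.80, 7.91 and 7.64, against 8.03, 8.30 and 8.26 in DBM embryos, a fall of 0.42 on the log2 scale (adjusted p = 0.0388). That call was lost without NICD replicate 1 (0.168) or 3 (0.214) and without DBM replicate 2 (0.204) or 3 (0.189), and the 3 calls stood among 0.628% of all probe sets.

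At stage 18, pcdh8.2.L was lower in NICD embryos, at 10.87, 11.04 and 10.74, against 11.38, 11.21 and 11.26 in DBM embryos (difference -0.40 ± 0.09, limma adjusted p = 0.0393). Xl2.8908.1.S2_at of aldh1a2.L read 11.20, 11.23 and 11.30 in NICD embryos, against 11.70, 11.74 and 11.77 in DBM embryos (-0.50 ± 0.11, adjusted p = 0.0262). These were the 2 members called, among 0.812% of all probe sets. The pcdh8.2.L call was lost without NICD replicate 1 (adjusted p = 0.107) or 3 (0.197) and without DBM replicate 1 (0.119), 2 (0.0689) or 3 (0.108), and the Xl2.8908.1.S2_at call without any of the 6 arrays (0.0536 to 0.109). With the block 4 members were called among 6.08% of all probe sets, the others being Xl2.8908.1.S1_at (-0.37, adjusted p = 0.0068) and Xl2.8908.3.A1_at (-0.34, 0.0223). At stage 38 the block added Xl2.8908.1.S2_at (-0.28, 0.0352), among 3.26% of all probe sets. Xl2.8908.3.A1_at went the other way at stage 38, higher in NICD than in DBM embryos by 0.24 without overlap. It was called in neither fit (limma adjusted p = 0.769, or 0.162 with the block), so the aldh1a2.L probe sets disagreed in direction there.

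Ordered by level, msgn1.L was highest in the 3 stage 18 groups, which overlapped each other. NICD at stage 28 followed, then DBM and GFP at stage 28, which overlapped, then NICD at stage 38, and DBM and GFP at stage 38, which also overlapped. Msgn1.S had the same order of stages, with NICD above DBM and DBM above GFP at stage 28, the DBM step not called, and all 3 groups overlapping at stage 38. Pcdh8.2.L was highest in DBM and GFP embryos at stage 18, which overlapped, then in NICD embryos at stage 18, and the stage 28 groups came before those of stage 38. Xl2.8908.1.S2_at of aldh1a2.L was highest in DBM, then GFP, then NICD embryos of stage 18, without overlap, and its 6 groups of the later stages lay between 9.49 and 10.07.

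Genes of the same tissue were counted from lists that left out the members. The segmentation list held 39 probe sets of clock and boundary genes, and the posterior growth zone list 31 probe sets of tail growth genes. For NICD against GFP, 4 segmentation probe sets were higher at stage 18, 10 at stage 28 and 1 at stage 38, and none was lower. With the block it was 10 higher and 1 lower, 15 higher, and 3 higher. Over all probe sets, for this list and those below, 1.61%, 0.65% and 0.095% were called in that order of stages. The block called 13.2%, 6.19% and 1.21%. Median differences over this list were 0.12, 0.22 and 0.15 in that order of stages. Those over all probe sets lay within 0.01 of 0 in each comparison. Nrarp.S, whose product limits Notch signalling and is a common target of it, was higher in NICD embryos at stage 18 in both its probe sets, with 13.23 ± 0.09 in NICD embryos and 12.12 ± 0.05 in GFP embryos for the brighter (SD, n = 3 each). Esr-5.L, a hairy and enhancer of split related gene, averaged 9.29 ± 0.09 in NICD embryos and 8.45 ± 0.20 in GFP embryos at stage 28 (limma adjusted p = 0.0053) in 1 of its 2 probe sets. Mespb.L, a boundary transcription factor, was higher in NICD embryos by 0.82 at stage 18 and 0.70 at stage 28, and ripply2.2.L, a repressor at the forming boundary, by 0.78 at stage 28. The single segmentation call at stage 38 was a probe set of esr-5.L (0.84, adjusted p = 0.0191).

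In the posterior growth zone list, 7 probe sets were higher in NICD than in GFP embryos at stage 18, 9 at stage 28 and 0 at stage 38, and none was lower. Wnt8a.L, a Wnt ligand of the growth zone, averaged 8.04 ± 0.16 in NICD embryos and 7.02 ± 0.14 in GFP embryos at stage 28 (limma adjusted p = 0.0018). Sp5l.S, a Wnt-responsive zinc finger factor, averaged 10.66 ± 0.03 in NICD embryos and 9.80 ± 0.06 in GFP embryos in 1 of the 3 probe sets called at that stage. Cdx1.S, a homeobox factor of posterior identity, was higher by 0.95 at stage 18 (adjusted p = 6.42e-04), and fgf20.L, a fibroblast growth factor, by 0.87 (adjusted p = 7.47e-04). With the block the list had 15, 14 and 1 higher probe sets in that order of stages. Median differences were 0.32, 0.33 and 0.12.

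The list of paraxial mesoderm and somite genes downstream of the presomitic stage held 22 probe sets. It had 0 limma calls for NICD against GFP at every stage. At an unadjusted limma p under 0.05, 2, 11 and 7 of the 22 passed in order of stage. Of all probe sets, 13.5%, 8.61% and 3.3% passed. With the block, 2 were lower at stage 18, 11 were higher at stage 28 and 1 at stage 38. Foxc2.S, a forkhead factor of paraxial mesoderm, was the nearest to the threshold at stage 28 in 1 of its probe sets, at 8.92 in NICD embryos and 8.57 in GFP embryos (limma adjusted p = 0.0532, or 0.0032 with the block). Against DBM, 2 probe sets of the list were higher in NICD embryos at stage 28, both of meox2.S, and 3 at stage 38, all of pax3.L or pax3.S.

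Other genes of retinoic acid metabolism and response filled 32 probe sets, of which 1 was higher in NICD than in GFP embryos at stage 18, 4 at stage 28 and 0 at stage 38, with none lower. With the block it was 6 higher and 1 lower, 7 higher and 2 lower, and 2 higher and 1 lower. Crabp2.L, a retinoic acid binding protein, averaged 11.71 ± 0.18 in NICD embryos and 11.05 ± 0.07 in GFP embryos at stage 28 (limma adjusted p = 0.0099). Cyp26c1.S, an enzyme that degrades retinoic acid, was higher by 0.67 and 0.76 in its 2 probe sets at that stage, and rara.L, a retinoic acid receptor, by 0.57. No probe set of the 11 in the list of other protocadherins was called by limma for either construct at any stage. For NICD against GFP, 2 had an unadjusted p under 0.05 at stage 18 and 0 at stages 28 and 38. Of all probe sets, 13.5%, 8.61% and 3.3% did at stages 18, 28 and 38. The protocadherins of lowest p for NICD against GFP were pcdh8.L at stage 18 (-0.23, limma adjusted p = 0.228) and pcdh1.L (0.27, adjusted p = 0.327). DBM against GFP gave 0 calls in all 5 lists at every stage, where 0.107% or fewer of all probe sets were called, and with the block 2 calls, both higher in the somite list at stage 28. In GFP embryos, 29 of the 39 segmentation and 28 of the 31 growth zone probe sets were lower at stage 28 than at stage 18, and 23 and 20 were lower at stage 38 than at stage 28. Of all probe sets, 29.4% and 22.4% were lower in those steps.

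**Figure D4:**
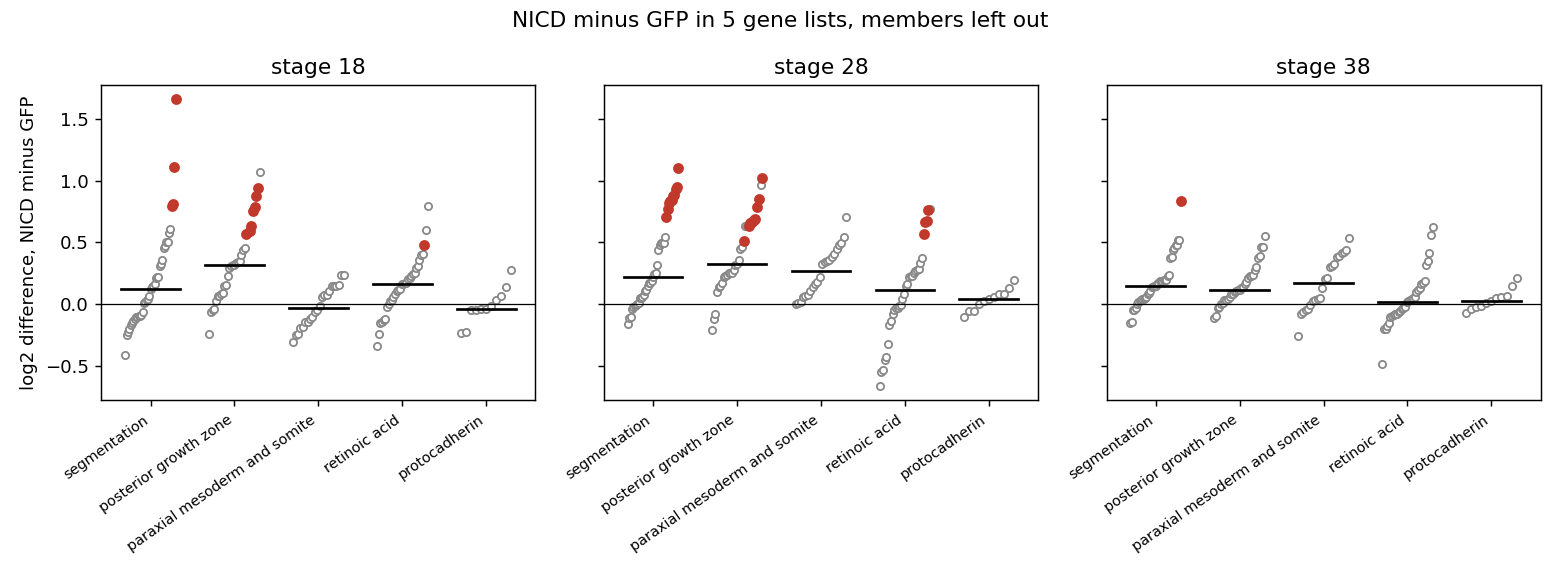
Log2 difference of NICD from GFP embryos (y axis) for every probe set of 5 gene lists (x axis), by stage. Filled points were called and open points were not, points are ordered by value within a list, and bars are list medians. Calls lie above 0 in each list that has any, and the list of paraxial mesoderm and somite genes and that of other protocadherins have none.

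The level of msgn1.L over the 27 arrays was most like that of esr-5.L (Pearson r = 0.996), followed by tgif2.S, prickle1.L and cdx4.L. All arrays share the 3 stages, which set most of the variation, so deviations from the stage mean were compared as well. On those, gpx3.S (0.925), esr-5.L (0.894), sp5l.S (0.849) and dkk1.S (0.836) were most like msgn1.L. For msgn1.S they were sp5l.S (0.994), foxd4l1.1.S, sall1.L and hoxc6.S over all arrays, and sp5l.S (0.773), hes7.2.L, cdx4.L and esr-5.L after removal of the stage mean. For pcdh8.2.L they were prickle1.L (0.992), pcdh8l.S, prickle1.S and ripply2.2.S, and snai2.L (0.825), ddx21.L, krt15.1.S and pax3.S without the stage mean. Some of these genes, such as esr-5.L, sp5l.S, pax3.S and ripply2.2, are in the lists above, so these likenesses are not separate from the list results. The search here and below covered the 15505 probe sets with 1 symbol and left out the members. Each symbol stands by its best probe set, which could differ from ranking to ranking.

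The aldh1a2.L probe sets had other nearest genes. Over all arrays, Xl2.8908.1.S1_at was most like cep57l1.L (0.989), stard13.S, pigv.S and ppp1r3c.2.L, and Xl2.8908.1.S2_at most like ppp1r3c.2.L (0.979), pigv.S, poc1a.L and LOC494855. Xl2.8908.3.A1_at was most like admp.S (0.989), mmp21.L, pnhd.L and grpel2.L, and Xl2.8908.2.S1_a_at most like rhof.L (0.972), ociad2.L, ppp1r3c.2.L and trim39.L. Xl2.2158.1.A1_at was most like krt12.4.S (0.926), an epidermal keratin gene, then mospd2.L, sqor.L and ckmt1b.S, and Xl2.2158.2.S1_at most like clasp1.L (0.804), atp1b2.L, sqor.L and lgals3.L. Xl2.8908.2.A1_at had no gene above 0.72, with entpd6.L, MGC86547, lin9.L and aox1.S first. Without the stage mean the highest coefficients were lower for the 4 probe sets that fell, with echdc1.L (0.671), aplnr.L, fhit.L and dnajc28.L for Xl2.8908.1.S1_at and hykk.L (0.749), anpep.L, palmd.L and tmem30b.L for Xl2.8908.1.S2_at. Xl2.8908.3.A1_at then had smc2.L (0.760), kars1.S, mespa.S and ccni2.L, and Xl2.8908.2.S1_a_at ift46.S (0.730), cpxm2.L, c7orf25.L and slc30a6.S. Xl2.2158.1.A1_at had tob1.S (0.882), tpp1.L, map3k7.S and uap1.L, Xl2.2158.2.S1_at grn.L (0.835), clasp1.L, tmem115.L and zdhhc8.S, and Xl2.8908.2.A1_at sox17b.1.L (0.713), MGC86547, entpd6.L and LOC100037118. Removal of the stage mean leaves replicate deviations in. At stage 18, replicate 1 deviated from the group means by -0.56 on average for Xl2.2158.1.A1_at and by -0.42 for Xl2.2158.2.S1_at. The part of that deviation in their coefficients was not tested.

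Markers of other tissues moved with the NICD groups in part. The summed level of 9 notochord probe sets reached 12.58 (log2) in NICD embryos at stage 18, where every array lay above the range of 11.74 to 12.01 in GFP embryos. It ran from 10.87 to 11.03 in NICD embryos and from 10.39 to 10.56 in GFP embryos at stage 28, and from 10.30 to 10.48 in NICD embryos and from 10.09 to 10.15 in GFP embryos at stage 38. Of these probe sets 2 were called at stage 18, tbxt.S and shh.L, and 1 at stage 28, tbxt.S, which is also in the growth zone list. The median difference over the 9 was 0.01 at stage 18, 0.35 at stage 28 and 0.27 at stage 38. All these sums add unlogged values, so bright probe sets weigh most in them. Blood markers summed over 5 probe sets ran from 8.87 to 10.19 in NICD embryos and from 10.84 to 11.63 in GFP embryos at stage 28. The blood sums overlapped at stages 18 and 38. Sums over 14 muscle probe sets were 15.84 to 15.96 in NICD embryos and 15.97 to 16.19 in GFP embryos at stage 18, and overlapped at stages 28 and 38. The sums of 18 lateral plate and pronephros probe sets overlapped at stages 18 and 28 and ran from 11.01 to 11.20 in NICD embryos and from 11.29 to 11.52 in GFP embryos at stage 38. Those of 7 neural tube probe sets overlapped at every stage. The sums of 8 epidermis probe sets overlapped at stage 18 and were 16.42 to 16.44 in NICD embryos and 16.50 to 16.56 in GFP embryos at stage 28. At stage 38 they were 16.1636 to 16.2015 in NICD embryos and 16.2042 to 16.2787 in GFP embryos, a narrow gap without overlap. DBM embryos also lay clear of GFP embryos in places. At stage 38 their notochord sums ran from 10.21 to 10.25, above the GFP range of 10.09 to 10.15. At stage 28 the muscle sums ran from 17.33 to 17.43 in DBM embryos and from 17.20 to 17.25 in GFP embryos. The other sums of DBM embryos overlapped those of GFP embryos. The part of these tissues in the member values was not tested.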

How the data were processed

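RNA from pools of embryos was hybridised to 27 arrays. The paper's methods name 9 samples, 1 for each construct and stage. Whether the 3 arrays of a group came from separate pools is not stated there. The authors' deposited values are log2 intensities after RMA (background correction, quantile normalization and summary per probe set, with Bioconductor), and were used without further normalization. Their second table, with 27 columns of log2 values named by scanner file and 6 columns of adjusted p-values from their own limma comparisons, was not used. Symbols came from the platform table, updated through Entrez identifiers in the RefSeq gene table of assembly 10.1, which served for names alone (15505 probe sets had 1 symbol, 279 several and 16851 none).

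Groups and replicate numbers came from the sample labels. All 27 arrays entered a single fit of 9 group means in limma 3.58.1 (R 4.3.3, statmod 1.5.0), with moderation by eBayes. Benjamini-Hochberg adjustment ran over 32635 probe sets within each comparison: NICD or DBM against GFP and NICD against DBM within a stage, GFP between stages, and 4 changes of effect between stages. The fit was checked on simulated data with noise drawn separately for each array, so the check did not cover deviations shared by arrays of a replicate number. The sample labels do not say what the arrays of a replicate number share, though scanner file names carry codes shared across constructs. Deviations from group means correlated at 0.454 to 0.811 between arrays of the same number within a stage (9 pairs a stage). Between different numbers they correlated at -0.689 to 0.573 in stage 18 arrays, while stage 28 gave -0.433 to -0.191 and stage 38 gave -0.423 to -0.288, and at -0.071 to 0.059 for the same number in neighbouring stages, so the number was taken as a pairing within stages only. The labels call replicates biological.

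The members and the 11 gene lists were chosen with earlier results of these data known, and no p was computed over a list. All 10 members are named, with the 4 symbols most like each, the list genes of lowest p among those called, and 2 of lowest p where a list had none. A search of promoters for motifs was not run. The alternatives were the block, the arrays of a comparison alone, repeated quantile normalization, a common median, a filter on dim probe sets, trended and robust variances, array weights, and leaving out each array.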

Additional observations from a re-analysis of the deposited data

Results flagged for a closer look

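The effect of NICD, taken against GFP embryos of the same stage, differed between stages for 4 probe sets when the replicate number was a block within stage, and for none without it. Between stage 28 and stage 18 the effect changed by 0.78 on the log2 scale for msgn1.S (limma adjusted p = 0.0167 with the block and 0.103 without). It changed by 0.54 for pcdh8.2.L (0.0248 and 0.165), by 0.54 for Xl2.8908.1.S1_at of aldh1a2.L (0.0147 and 0.179) and by 0.56 for Xl2.8908.1.S2_at of aldh1a2.L (0.0073 and 0.248). Between stage 38 and stage 28 it changed by -0.62 for Xl2.8908.1.S1_at (0.0160 and 0.320). Of all probe sets, the block called 3.18% for the change between stages 28 and 18 and 0.346% for that between stages 38 and 28. The fit without it called 0.0981% and 0.00306%. Groups of 3 arrays are too small for a check of single outlying arrays.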

How the results depend on the processing

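Alternative settings gave 330 values for the member differences called in the fit without a block, of which 289 stayed past the threshold in the same direction, 41 missed it and 0 changed sign. These values pool the construct calls with the 8 and 4 calls of the GFP stage steps, most of them at a far lower adjusted p. The pooled share therefore does not describe the construct calls alone. For NICD against GFP, member counts of 0, 2 and 1 at stages 18, 28 and 38 became 3, 3 and 2 with the replicate block within stage, 2, 3 and 2 with array weights, 2 at stage 38 with repeated quantile normalization and with a block over all stages, and 0 at stages 28 and 38 with only the arrays compared (0 at stage 38 with the block added). Without single arrays the stage 18 count stayed 0, that of stage 28 ranged over 1 to 2 and that of stage 38 over 0 to 2. For NICD against DBM, counts of 2 and 3 at stages 18 and 38 became 0 and 0 with only the arrays compared, and at stage 18 also 1 with the block added, 1 with a common median, 4 with the block within stage, 3 with repeated quantile normalization and 3 with array weights, and 0 to 2 without single arrays. For DBM against GFP the count at stage 18 was 1 with array weights and 0 otherwise. Changes of the NICD effect, 0 in that fit, were 4 with the block and 4 with array weights between stages 28 and 18, and 1 with the block between stages 38 and 28. The replicate block within stage changed no member call other than those given here and beside the results. For NICD against GFP at stage 18 it raised the share of all probe sets called from 1.61% to 13.2%. That share is not given here for the other settings, so their member counts cannot be set against it. The filter on dim probe sets (highest group mean under 6.92) kept 19348 probe sets and 8 members.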

Other observations

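Outside the lists of presomitic and posterior genes, single tissue markers differed with NICD. Hbd.S, a globin gene of blood, averaged 7.41 ± 0.87 in NICD embryos and 9.76 ± 0.39 in GFP embryos at stage 28 (SD, n = 3 each, limma adjusted p = 0.0018), and hba1.S was lower in NICD than in DBM embryos at stage 38 by 1.08 on the log2 scale. Lhx1.L and foxf1.L, transcription factor genes of intermediate and lateral mesoderm, fell by 0.74 and 0.79 in NICD against GFP embryos at stage 18 (adjusted p = 0.0071 and 0.0070). They were the 2 called of 18 lateral plate and pronephros probe sets, whose median difference at that stage was -0.0009. With the block, 1 of the 18 was higher and 4 were lower. Tp63.L, a factor of basal epidermis, was higher in NICD than in GFP embryos at stage 18 (0.54, adjusted p = 0.0025) and stage 28 (0.49, adjusted p = 0.0150), while the median over the 8 epidermis probe sets was -0.15 and -0.10 at those stages. With the block, 1 other epidermis probe set was lower at stage 18. Higher as well was shh.L, a signal of the notochord and floor plate, at stage 18 (0.64, adjusted p = 0.0086).

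No muscle or neural tube probe set was called by limma without the block for NICD against GFP at any stage. At stages 18, 28 and 38, 6, 3 and 0 of 14 muscle probe sets had an unadjusted p under 0.05. So did 2, 3 and 1 of 7 neural tube probe sets, against 13.5%, 8.61% and 3.3% of all probe sets. With the block, 3 muscle probe sets were lower at stage 18, 3 were higher at stage 28 and 0 were called at stage 38. The muscle genes nearest the threshold were actc1.L at stage 18 (-0.34, limma adjusted p = 0.0597, or 0.0141 with the block) and myod1.S at stage 28 (0.49, adjusted p = 0.0850, or 0.0039 with the block), and the neural genes were pax6.L at stage 18 (-0.42, adjusted p = 0.144, or 0.0035 with the block) and tubb2b.S at stage 18 (-0.34, adjusted p = 0.291, or 0.0281 with the block). At stage 28, 3 neural tube probe sets were higher with the block and 0 lower, among them 2 of sox2.L (0.59 and 0.35, adjusted p = 0.0215 and 0.0100 with the block, 0.353 and 0.412 without). The median difference over the 7 neural tube probe sets was 0.02 at stage 18 and -0.02 at stage 28, so the named genes do not stand for the list.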
